A study of Mus musculus with 6 samples.

Results

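The cytosolic ribosomal proteins are the protein parts of the ribosome that works outside the mitochondria. They were taken as every row whose symbol is Rpl or Rps with its number, with Rplp0, Rplp1, Rplp2 and Rpsa, and this gave 72 of the 10041 rows, 42 for the large and 30 for the small subunit. Of 79 genes that encode the mouse cytosolic ribosomal proteins, these 72 had rows of their own under that rule, 4 stood in rows outside it (Fau, and Rpl13a, Rpl30 and Rpl34 in rows that name several genes), and 3 are not analysed here. Levels are in FPKM, the fragments of a library that fall on a gene, divided by its length in kilobases and scaled to all fragments mapped. All 72 genes passed the filter on low values, which asked for 1 FPKM or more in 3 or more of the 6 libraries.

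The ribosome's small subunit reads the mRNA and its large subunit joins amino acids into protein, and each subunit is built around its own ribosomal RNA. Ribosomal protein mRNAs belong to the most abundant of a dividing cell, and most carry a terminal oligopyrimidine (TOP) tract, a C followed by a run of pyrimidines at the very 5′ end, through which the kinase mTORC1 and the protein LARP1 set their translation and stability. Activated T cells enlarge their pool of ribosomes before they divide, and the ribosomal proteins are made in near equal numbers and assembled with ribosomal RNA in the nucleolus.

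RNA was sequenced from mouse Th17 cultures, helper T cells that secrete IL-17, in 3 libraries grown with the vehicle DMSO and 3 grown with oligomycin (2.5 ng/ml), an inhibitor of the ATP synthase of mitochondria. All cultures began as naive CD4 T cells and were stimulated for 48 h with 10 µg/ml of plate-bound anti-CD3e and 1 µg/ml of anti-CD28, in the presence of the cytokines IL-23 at 10, IL-6 at 20 and TGF-β1 at 2.5 ng/ml. No genotype, strain or age is given in the sources used here. The comparison asks how Th17 transcripts depend on oxidative phosphorylation. Nothing in the labels says that the libraries came from separate animals, so the p-values measure the spread between these samples, which may be technical. The sample titles carry the same numbers (17, 42 and 43) in both groups, and what these numbers stand for is not given. The 6 T cell markers fixed for the check (Cd3d, Cd3e, Cd3g, Cd4, Lck, Cd28) summed to 779 to 929 FPKM in the DMSO and 774 to 893 in the oligomycin libraries. Of these, Cd28 was at 128 to 166 FPKM with DMSO and lower, at 82.4 to 120, with oligomycin. The groups of the other 5 overlapped. Summed levels of 4 Th17 markers (Il17a, Il17f, Il23r, Ccr6) were 1640 to 1887 FPKM with DMSO and 245 to 397 with oligomycin. Markers of other cells were few: of 7 myeloid markers only Cd68 had a row (1.08 to 2.07 FPKM with DMSO, 2.39 to 5.07 with oligomycin), of 2 CD8 markers only Cd8b1 (2.63 to 3.12 and 2.41 to 3.30) and of 3 natural killer cell markers only Klre1 (1.18 to 2.03 and 0 to 0.47), and the B cell, erythroid and platelet markers are not analysed here. The part of these markers in the changes of the ribosomal proteins was not tested.

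With oligomycin, transcripts of the cytosolic ribosomal proteins rose in 44 of 72 genes and fell in 0, by limma with Benjamini-Hochberg adjustment over all 9986 rows tested. Among all rows tested, 14.0% were called higher and 16.1% lower. At an unadjusted p under 0.05, 49 of the 72 were higher and 3 lower, where 22.2% of all rows were lower. The median log2 change of the 72 was 0.60, with a range from -0.71 to 1.46, against -0.0044 over all rows tested. In 46 of the 72 the 3 oligomycin values lay above the 3 DMSO values, in 1 (Rpl24) below, and in 25 the groups overlapped. Over all rows tested the groups did not overlap in 23.1% with oligomycin above and in 24.3% with oligomycin below.

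Summed over the 72 genes, the ribosomal proteins took 7.35%, 7.42% and 6.93% of the FPKM outside small RNA rows with DMSO and 13.0%, 12.7% and 12.7% with oligomycin. The groups were far apart on this measure, and the values within each group lay close together. An FPKM is a share of its library, so more ribosomal protein mRNA per cell and less of other RNA cannot be told apart, and in these bulk samples neither can a change in the number of cells of a type and a change in RNA per cell.

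Genes of both subunits rose. Of the 42 large subunit genes 24 rose, and their median log2 change was 0.53. Of the 30 small subunit genes 20 rose, with a median of 0.73. The summed large subunit level was 15040, 15737 and 13737 FPKM in the 3 cultures with DMSO and 24626, 22726 and 21171 in those with oligomycin. The summed small subunit level was 15387, 15625 and 13482 FPKM with DMSO and 26729, 24961 and 25411 with oligomycin. Over these genes the sums of both subunits were about level in each DMSO library. In each oligomycin library the small subunit sum was the higher. The sums leave out rows outside the rule, those with Rpl13a, Rpl30 and Rpl34 (large) and Fau (small). The row with Rpl13a, which also counts small RNAs, had means of 7453 FPKM with DMSO and 7399 with oligomycin. Which sum is the higher therefore depends on the rows counted. The difference between the subunits was not tested. The large subunit count was 12 without DMSO replicate 3 and 14 without DMSO replicate 1, while the median stayed at 0.53 and 0.56. Over all rows tested, the number called higher dropped as well, from 1403 to 780 and 816 in the same fits.

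Library by library, the rise was shared across the genes. Measured from each gene's DMSO mean, the median large subunit gene stood at 0.60, 0.55 and 0.55 on the log2 scale in the 3 oligomycin libraries, and 38, 32 and 35 of the 42 genes stood above it. The median small subunit gene stood at 0.81, 0.69 and 0.82, with 28, 26 and 26 of the 30 genes above. The other 9914 rows tested had medians of 0.012, 0.015 and -0.047 in the same libraries. All 3 oligomycin libraries therefore carried the shift in both subunits. The DMSO libraries set the mean from which each gene is measured, so as a group they must lie around it.

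**Figure D1:**
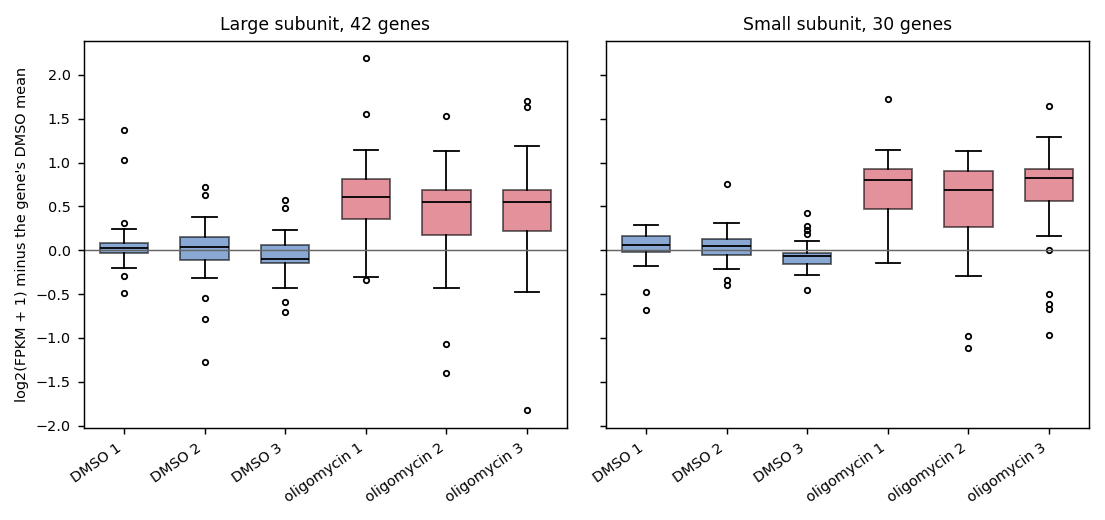
Log2(FPKM + 1) of each gene minus its mean over the 3 DMSO libraries, by library, for the 42 large subunit genes (left) and the 30 small subunit genes (right). Boxes span the middle quartiles with a line at the median, whiskers reach the farthest gene within the usual box plot limit, and circles are genes beyond it. The oligomycin medians lie at 0.55 to 0.60 for the large and 0.69 to 0.82 for the small subunit. The DMSO medians lie near 0, because each gene is measured from its DMSO mean.

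The starts of these genes were compared for the sequence feature that names the TOP class. RefSeq promoter entries (GRCm38.p6) matched 54 of the 72 genes by symbol. In the 30 bases from 10 before to 20 from the annotated start, on the sense strand, a C followed by pyrimidines in a run of at least 6 occurred in 30 of these 54 (55.6%), against 24.9% of the 27025 genes of the promoter table and 26.3% of the 7258 genes that also had a row. The following windows show the presence or absence of this run, in genes that rose and in genes that were not called, with capitals for the pyrimidine run. Rps24, Rpl38, Rps15a, Rps18 and Rpl35a rose and have the run, Rps7 had the largest rise and has none in this window, and Rpl15 and Rpl27a have long runs and were not called.
Rps24: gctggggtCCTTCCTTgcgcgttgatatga
Rpl38: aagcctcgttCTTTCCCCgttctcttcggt
Rps15a: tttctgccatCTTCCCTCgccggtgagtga
Rps18: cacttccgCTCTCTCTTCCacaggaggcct
Rpl35a: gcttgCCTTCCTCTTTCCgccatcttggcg
Rps7: cggtttccacccacctacttccgctgtccc
Rpl15: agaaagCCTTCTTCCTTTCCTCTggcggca
Rpl27a: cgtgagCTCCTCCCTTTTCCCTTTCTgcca

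These windows lie at chr14:24490668-24490697 on the plus strand (Rps24), chr11:114668570-114668599 plus (Rpl38), chr7:118116128-118116157 minus (Rps15a), chr17:33955646-33955675 minus (Rps18), chr16:33056472-33056501 plus (Rpl35a), chr12:28635934-28635963 minus (Rps7), chr14:18270967-18270996 minus (Rpl15) and chr7:109519185-109519214 plus (Rpl27a). For Rps24 and Rpl35a the promoter table holds more than 1 start, and the start whose window has the longest run is shown. The run did not separate the genes that rose: 18 of the 30 with it were called higher, with a median log2 change of 0.66, and 15 of the 24 without it, with a median of 0.60. No test was made of that comparison. A match is a string of letters at an annotated start and not a mapped 5′ end.

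Other promoter motifs were searched on both strands of the 300 bases from 250 before to 50 after each start. A gene was counted if any of its promoters held the string. The ETS-type string CCGGAAG was in 23 of the 54 ribosomal protein genes (42.6%). It was in 9.93% of all genes of the promoter table and 23.1% of those with a row. The YY1-type string AAGATGGC was in 4 (7.41%), against 3.19% and 5.97%, and the E-box CACGTG, a string bound by Myc among others, in 4 (7.41%), against 8.09% and 12.7%. CCGGAAG and AAGATGGC can overlap in their AAG. Of the 23 genes with CCGGAAG 14 rose (median 0.67), and of the 31 without it 19 rose (median 0.62).

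Among all 72 genes, Rps7 had the largest rise. Rps7, a small subunit protein that also binds the p53 regulator MDM2, was at 151, 129 and 122 FPKM with DMSO and at 444, 269 and 419 with oligomycin. Every oligomycin value exceeded every DMSO value, with the second oligomycin library the lowest of its group. The group means were 134 ± 15.2 and 378 ± 94.7 FPKM (SD, n = 3 each), a fold of 2.82, and the log2 change was 1.46 (SE 0.20, limma adjusted p = 0.00131). Its locus in the deposited table, in the GRCm38 (mm10) build, is chromosome 12, 28630847 to 28635953, on the minus strand in the GENCODE annotation.

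Rps24, a small subunit protein needed to process the precursor of the small subunit's RNA and mutated in Diamond-Blackfan anemia, had the smallest p of the family. Its level was 221, 226 and 217 FPKM with DMSO and 479, 485 and 517 with oligomycin, at chromosome 14, 24490681 to 24496146. Both groups were tight and far apart, at 221 ± 4.23 and 494 ± 20.3 FPKM (SD, n = 3 each), with a log2 change of 1.15 (SE 0.12, limma adjusted p = 0.000327). Rps19, the gene most often mutated in Diamond-Blackfan anemia, was at 129, 155 and 156 FPKM with DMSO and 320, 315 and 304 with oligomycin, a log2 change of 1.095 (SE 0.13, limma adjusted p = 0.00056). The groups of Rps19 were as clearly apart.

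Rps20, on the head of the small subunit, went from 1166, 963 and 892 FPKM with DMSO to 2212, 1870 and 2383 with oligomycin, and is the most abundant of the 5 largest rises in its subunit. Its log2 change was 1.099 (SE 0.19, limma adjusted p = 0.00348). Rps15a, at 47.1, 41.8 and 38.2 FPKM with DMSO and 85.9, 89.6 and 97.5 with oligomycin, changed by 1.09 (SE 0.12, limma adjusted p = 0.000471). In both genes the lowest oligomycin value lay far above the highest DMSO value.

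In the large subunit Rpl38 had the largest called rise. Rpl38, known from mice whose axial skeleton is altered when a copy is lost, was at 52.7, 56.8 and 49.3 FPKM with DMSO and 157, 77.8 and 166 with oligomycin (1.25, SE 0.26, limma adjusted p = 0.00905). All oligomycin values were above all DMSO values, with the second oligomycin library well under the other two. Its row spans chromosome 11, 114344526 to 114757886, a locus that holds other coding genes as well. Rpl12 was at 3.99, 9.09 and 3.55 FPKM with DMSO and 8.32, 16.8 and 12.8 with oligomycin (1.11, SE 0.33, limma adjusted p = 0.0346), and here the groups overlapped, since the second DMSO library exceeded the lowest oligomycin library. Rpl13 (147, 117 and 148 to 259, 225 and 312 FPKM) changed by 0.94 and Rpl35a (271, 251 and 226 to 443, 429 and 496) by 0.87, each with groups that did not overlap. Rpl35a is another gene of Diamond-Blackfan anemia.

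**Figure D2:**
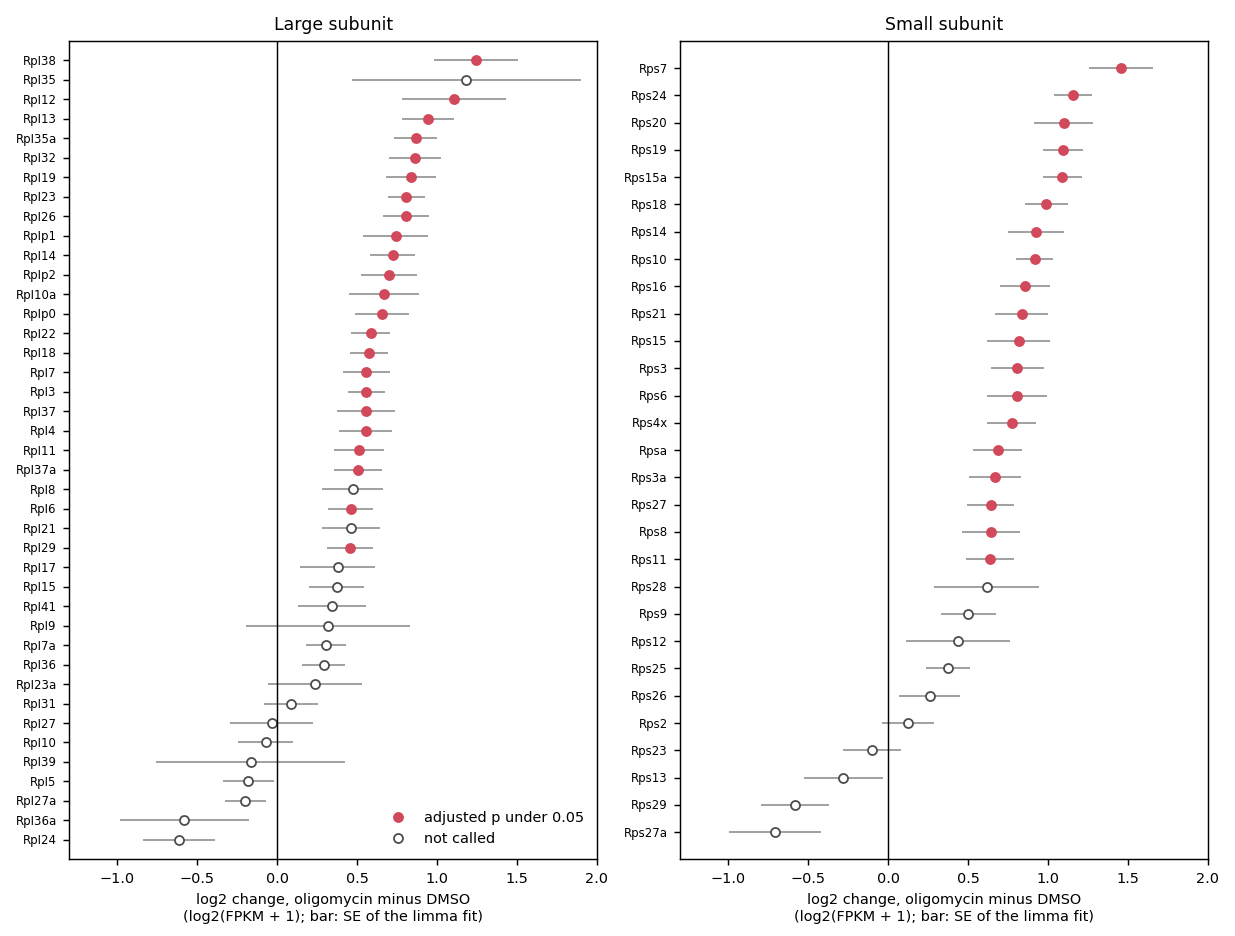
Log2 change in log2(FPKM + 1), oligomycin minus DMSO, for 41 large subunit genes (left) and 29 small subunit genes (right), in order of the change. Points are the fitted change and bars its SE in limma; filled points have an adjusted p under 0.05 over all rows tested, and they all lie to the right of 0, from 0.46 (Rpl29) to 1.46 (Rps7).

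By role, the stalk of the large subunit rose in full. The stalk recruits and activates the elongation factors, and its 4 genes, Rplp0 at its base, the acidic proteins Rplp1 and Rplp2, and Rpl12 beside them, were all called higher. Rplp1 was at 2864, 2972 and 2642 FPKM with DMSO and 5409, 4510 and 4314 with oligomycin (0.74, SE 0.20, limma adjusted p = 0.0260). Rplp0 was at 1311, 1425 and 1176 FPKM and then 2175, 2090 and 1894 (0.66, SE 0.17, limma adjusted p = 0.0209), and Rplp2 at 746, 845 and 663 and then 1437, 1126 and 1106 (0.70, SE 0.18, limma adjusted p = 0.0189). The groups of these 3 genes did not overlap. With fewer libraries the 4 calls were not held: without DMSO replicate 3 the adjusted p was 0.0960 for Rplp0, 0.0989 for Rplp1, 0.0854 for Rplp2 and 0.111 for Rpl12, and without DMSO replicate 1 it was 0.0641, 0.0695, 0.0605 and 0.106, at log2 changes of 0.58 to 0.96. The call of Rplp1 was also lost without DMSO replicate 2 (0.78, adjusted p = 0.0586) and oligomycin replicate 3 (0.81, adjusted p = 0.0542), and that of Rpl12 without oligomycin replicate 2 (0.89, adjusted p = 0.0851) and replicate 3 (1.07, adjusted p = 0.0917). Over all alternatives the adjusted p ran from 0.00548 to 0.0960 for Rplp0, from 0.00518 to 0.0989 for Rplp1, from 0.00473 to 0.0854 for Rplp2 and from 0.00471 to 0.111 for Rpl12.

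The 2 proteins that travel with 5S ribosomal RNA differed in their calls. Rpl11, which with Rpl5 holds MDM2 when ribosome assembly fails, rose from 7.51, 5.82 and 8.57 FPKM with DMSO to 10.1, 10.1 and 12.0 with oligomycin (0.51, SE 0.15, limma adjusted p = 0.0362). Rpl5 was at 7.54, 6.64 and 8.88 FPKM with DMSO and 7.79, 5.39 and 6.91 with oligomycin (-0.18, SE 0.16, limma adjusted p = 0.421), with groups that overlapped. The difference between these genes was not tested. Rpl11 was no longer called when DMSO replicate 1 (adjusted p = 0.0771), DMSO replicate 2 (0.109) or oligomycin replicate 3 (0.114) was left out, at log2 changes of 0.38 to 0.54, and over all alternatives its adjusted p ran from 0.0182 to 0.114.

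Of the 8 genes around the tunnel through which the new protein leaves, 3 rose. Rpl4, whose loop lines the tunnel, was at 1487, 1456 and 1410 FPKM with DMSO and 2351, 2073 and 1979 with oligomycin (0.55, SE 0.17, limma adjusted p = 0.0373). Rpl26 was at 425, 463 and 363 FPKM and then 747, 722 and 711 (0.81, SE 0.15, limma adjusted p = 0.00459), and Rpl19 at 5.12, 7.53 and 5.69 and then 11.4, 13.0 and 10.4 (0.84, SE 0.16, limma adjusted p = 0.00545). The groups of these genes did not overlap, yet the call of Rpl4 was lost when any of the 6 libraries was left out, at log2 changes of 0.48 to 0.61, with an adjusted p from 0.0516 (without oligomycin replicate 1) to 0.126 (without DMSO replicate 3), and from 0.0102 to 0.126 over all alternatives.

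The other 5 tunnel genes were not called. Rpl35 had a large and uncertain difference, at 17.6, 3.19 and 3.76 FPKM with DMSO and 31.8, 4.68 and 22.3 with oligomycin (1.18, SE 0.72, limma adjusted p = 0.238). Its groups overlapped, and without oligomycin replicate 2 the change was 1.94 with an adjusted p of 0.0372, against a range over the alternatives from 0.0323 to 0.510. Rpl39, one of the smallest ribosomal proteins, was at 527, 359 and 471 FPKM with DMSO and 752, 670 and 125 with oligomycin, so that the third oligomycin library stood under every other library. Its log2 change was -0.17 (SE 0.59, limma adjusted p = 0.848) and without oligomycin replicate 3 it was 0.67 (adjusted p = 0.0607, range over the alternatives 0.0607 to 0.972). Rpl17 changed by 0.38, Rpl23a by 0.24 and Rpl31 by 0.087, all with overlapping groups.

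Of 8 small subunit proteins described here that lie along the mRNA path or at the decoding site, 4 rose and 0 fell. Rps3, at the entry of the mRNA channel, went from 1447, 1457 and 1286 FPKM with DMSO to 2494, 2378 and 2446 with oligomycin (0.81, SE 0.17, limma adjusted p = 0.00821). Rps14 went from 1290, 1358 and 1071 FPKM to 2306, 2406 and 2312 (0.92, SE 0.17, limma adjusted p = 0.00555). In both of these abundant genes the lowest oligomycin value was above the highest DMSO value.

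Rps15, whose tail reaches the decoding site, went from 1411, 1704 and 1232 FPKM to 2674, 2703 and 2242 (0.82, limma adjusted p = 0.0153), and Rpsa, also known as the laminin receptor, from 19.2, 25.2 and 16.7 FPKM to 31.5, 34.7 and 32.6 (0.69, limma adjusted p = 0.0113). The row of Rps15 spans 672333 bases, a locus that holds 45 other coding genes and is shared with 26 other rows. Rps15 was no longer called when DMSO replicate 3 (0.71, adjusted p = 0.0734) or 1 (0.80, adjusted p = 0.0520) was left out, and over all alternatives its adjusted p ran from 0.00459 to 0.0734. Rps2, Rps23, Rps26 and Rps28 were not called. Rps2, at the channel's entry with Rps3, was at 532, 560 and 528 FPKM with DMSO and 721, 521 and 541 with oligomycin (0.12, SE 0.16, limma adjusted p = 0.589), so only the first oligomycin library stood out. Rps23, beside the decoding centre, was at 8.34, 10.5 and 9.79 FPKM and then 10.1, 10.3 and 6.41 (-0.10), Rps26 at 1038, 862 and 918 and then 1399, 959 and 1050 (0.26), and Rps28 at 0.65, 1.37 and 2.08 and then 1.86, 1.70 and 4.62 (0.62).

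Rps6, the ribosomal protein phosphorylated by S6 kinase downstream of mTORC1, was at 10.1, 6.53 and 10.6 FPKM with DMSO and 16.4, 14.1 and 18.7 with oligomycin. The groups did not overlap, and the log2 change was 0.81 (SE 0.19, limma adjusted p = 0.0130). Its mean of 12.7 FPKM over the 6 libraries was low for the family, whose median gene stood at 148 FPKM.

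No gene of the family fell by the test, but a few were lower with oligomycin. Rps27a, made as a fusion with ubiquitin, was at 6.91, 4.97 and 8.17 FPKM with DMSO and 6.39, 2.49 and 2.87 with oligomycin (-0.71, SE 0.29, limma adjusted p = 0.0962). Rps29, a small zinc-binding protein, was at 37.4, 26.6 and 30.2 FPKM and then 27.9, 15.3 and 19.9 (-0.58, SE 0.21, limma adjusted p = 0.0703). Rpl24, in a bridge between the subunits, was at 4.0, 2.92 and 2.88 FPKM and then 2.44, 1.03 and 2.05 (-0.61, SE 0.23, limma adjusted p = 0.0702). The first oligomycin library was the highest of its group in all 3, and it reached into the DMSO range in Rps27a and Rps29 but not in Rpl24.

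Without oligomycin replicate 1 these 3 genes passed the threshold as lower, Rps27a at -1.04 (adjusted p = 0.00825), Rps29 at -0.80 (adjusted p = 0.0135) and Rpl24 at -0.77 (adjusted p = 0.0378). With the replicate number as a block, all 3 also passed it as lower. Over all alternatives the adjusted p ran from 0.00825 to 0.254 for Rps27a, from 0.00960 to 0.205 for Rps29 and from 0.0342 to 0.211 for Rpl24. Rpl36a (6.81, 10.5 and 3.55 FPKM, then 5.64, 1.82 and 5.52) changed by -0.58, Rps13 (8.74, 7.84 and 4.83, then 7.65, 5.50 and 3.99) by -0.28 and Rpl27a (28.0, 31.8 and 33.6, then 24.4, 26.3 and 30.5) by -0.20, none called and all with overlapping groups. Rpl9, listed at 0 in the second DMSO library and at 3.93 and 1.84 FPKM in the others, was at 1.77, 1.36 and 3.14 with oligomycin, and it is the only gene of the 72 with a 0.

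**Figure D3:**
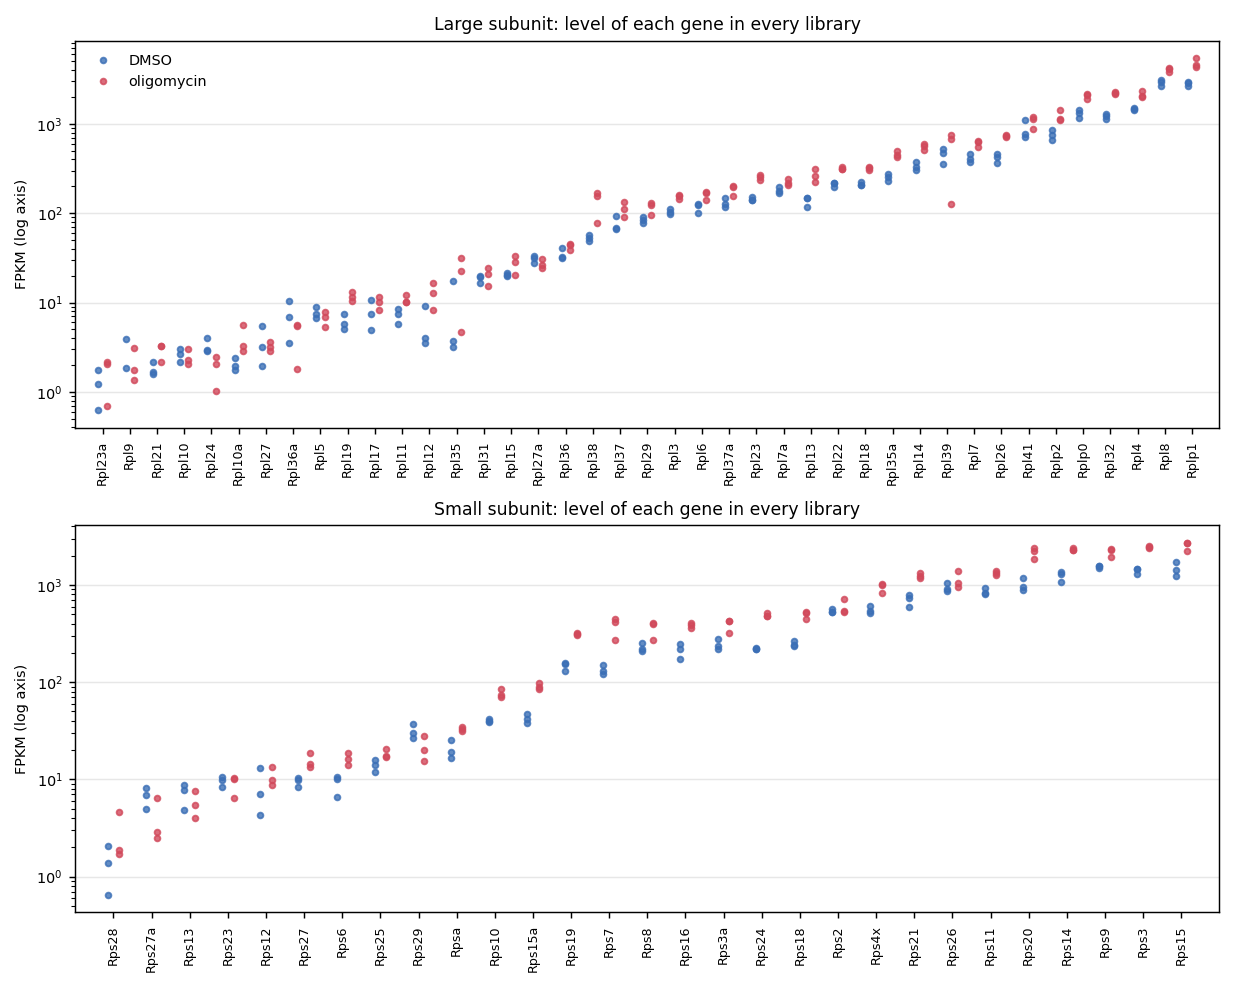
FPKM of 41 large subunit genes (above) and 29 small subunit genes (below) in every library on a log axis, with genes in order of their mean over the 6 libraries; blue points are the 3 DMSO and red points the 3 oligomycin libraries. The value of 0 for Rpl9 in 1 DMSO library cannot be drawn on this axis, and the means drawn run from 1.41 FPKM (Rpl23a) to 3785 FPKM (Rplp1).

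Although ribosomal proteins are built into the ribosome in near equal numbers, the levels of their transcripts in the deposited table covered a wide range. FPKM are scaled to length, but they also depend on how reads with several matches were treated, which is not given. The mean of Rplp1, 3785 FPKM, was 2677 times the lowest, 1.41 in Rpl23a. Rplp1 and Rpl8 (3478) had the highest means of the large subunit over all libraries, and their order turned between the groups: Rpl8 was the higher in each DMSO library, and with oligomycin every Rplp1 value was above every Rpl8 value. Rpl23a, Rpl9 (2.01) and Rps28 (2.05) were the lowest of the family, and none of these 3 differed from its neighbours in the order beyond the spread between libraries.

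The level followed how much of a gene's coding sequence is found elsewhere in the genome. Ribosomal protein genes have many processed pseudogenes, near copies that a read can also match. For each gene, the share of the 50-base stretches of its coding sequence that also occur in the transcripts of another annotated gene (GENCODE M21) was counted. In 25 genes every stretch was shared, in 36 at least 50% but not all, and in 11 under 50%. The 25 fully shared genes had means from 1.41 to 299 FPKM, and the 11 with under 50% shared had means of 264 FPKM or more. All of the 17 lowest genes were fully shared, and 0 of the 20 highest.

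Across the 72 genes the shared percentage and the log2 of the mean level had a Pearson r of -0.72 and a Spearman rho of -0.86, a description over genes of 1 family that share their libraries. How reads with several matches were treated is not given in the sources used here, and the part of shared sequence in these levels was not tested. Rps6, Rpl5, Rpl11, Rps27a, Rps29 and Rpl24 are among the fully shared genes. Rpl38, Rpl12, Rpl13 and Rpl19, all called higher, are fully shared as well. Reads of these genes and of their copies cannot be told apart where the sequences are the same. In Rps3 8.09% of the stretches were shared, in Rpl8 8.73% and in Rpl4 20.3%.

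The share of genes called followed the level as well. Of the 43 genes with a mean of at least 50 FPKM 36 rose (83.7%), with a median log2 change of 0.72, and of the 29 below it 8 rose (27.6%), with a median of 0.37. In the large subunit 19 of 23 genes at or above that level rose (median 0.57) and 5 of 19 below it, and in the small subunit 17 of 20 (median 0.85) and 3 of 10. Of the 11 genes with under 50% shared sequence 8 rose, with a median of 0.64 and all 11 changes above 0. Of the 25 fully shared genes 9 rose, with a median of 0.37 and 10 changes below 0. By level, 10 of the 29 genes under 50 FPKM had a change below 0, and 1 of the 43 at or above it. Over all 72 genes the log2 mean level and the log2 change had an r of 0.44 (rho 0.41), and among the 43 genes at or above 50 FPKM an r of -0.094. The pseudocount of 1 draws the changes of the lowest genes toward 0. Level and shared sequence ran together across these genes, and the part of either in these counts was not tested.

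**Figure D4:**
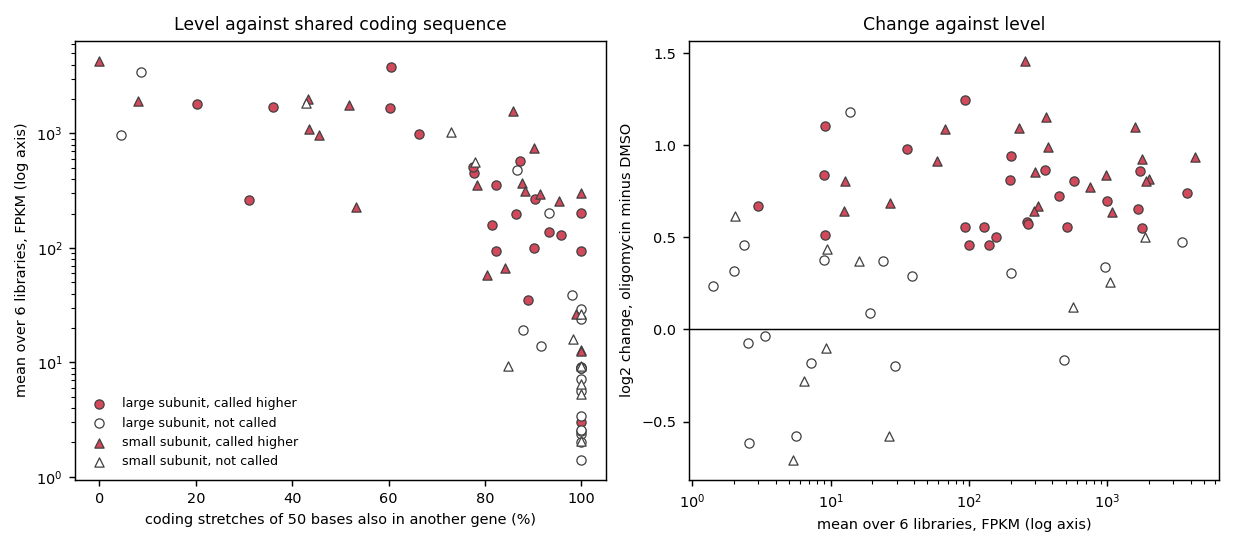
Left, the mean over 6 libraries in FPKM (log axis) against the percentage of 50-base coding stretches found in another gene. Right, the log2 change, oligomycin minus DMSO, against the same mean. Circles are large and triangles small subunit genes, filled where the gene was called higher: all genes under 50% shared lie at 264 FPKM or above, and 36 of the 43 genes at or above 50 FPKM were called.

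The 7 genes at or above 50 FPKM that were not called were Rpl8, Rps9, Rpl41, Rpl39, Rpl7a, Rps26 and Rps2, a set named after its values were seen. Rpl8, which lies by the peptidyl transferase centre, was at 2934, 3131 and 2682 FPKM with DMSO and 4114, 4165 and 3840 with oligomycin (0.47, SE 0.19, limma adjusted p = 0.0957). Its groups did not overlap, and it was called after scaling to equal sums (0.59, adjusted p = 0.0301) or to the upper quartile (0.56, adjusted p = 0.0389) and without the intensity trend (adjusted p = 0.0196), against a range over the alternatives from 0.0196 to 0.409. Rps9 (0.50, adjusted p = 0.0551) and Rpl7a (0.31, adjusted p = 0.101) also had groups that did not overlap, and Rpl41 and the other 3 had groups that did. Rps9 was called with equal sums, with the upper quartile, without rows that share a locus and without the trend (adjusted p from 0.0172 to 0.169 over all alternatives), and Rpl7a with equal sums, the upper quartile and quantile normalization (adjusted p from 0.00692 to 0.3003).

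Many ribosomal protein genes host small nucleolar RNAs in their introns. In 28 of the 72 an annotated snoRNA gene lies inside the gene, and 17 of these rose, with a median log2 change of 0.56, while of the 44 without one 27 rose, with a median of 0.63. In 11 genes the deposited locus also holds another coding gene, and 5 of these rose. Coding length (r = 0.064) and the GC content of the coding sequence (r = 0.11) had little linear relation to the log2 change across the 72 genes.

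Ribosomal protein genes in rows outside the symbol rule split evenly between rows that rose and rows that were not called. The row of Rpl30 with Gm12191 was at 370, 437 and 335 FPKM with DMSO and 761, 883 and 683 with oligomycin, and rose by 1.02 (limma adjusted p = 0.00269). The row of Rpl34 with Rpl34-ps1 was at 750, 651 and 598 FPKM and then 1440, 1279 and 1604, and rose by 1.11 (limma adjusted p = 0.00204). Fau, which encodes a small subunit protein fused to a ubiquitin-like protein, was at 22.1, 22.4 and 18.7 FPKM and then 22.3, 17.8 and 23.4 (0.00052, limma adjusted p = 0.998). The row of Rpl13a with Snord33 and Mir5121, which also counts small RNAs, was at 6844, 8359 and 7157 FPKM and then 7860, 7380 and 6957 (-0.0069, limma adjusted p = 0.985). The groups of the rows with Rpl30 and Rpl34 were apart, and those of the other two overlapped.

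Pseudogene rows were also present. Rps15a-ps4 was at 40.04, 57.5 and 39.8 FPKM with DMSO and 82.9, 150 and 102 with oligomycin (1.25, limma adjusted p = 0.00517), next to a log2 change of 1.09 for Rps15a itself. The row of Rplp2-ps1 with Wdr89 rose by 0.72 and was no longer called when DMSO replicate 1 (0.73, adjusted p = 0.0564) or 3 (0.63, adjusted p = 0.0831) was left out. Rps19-ps3, a low row at 1.06, 1.56 and 3.87 FPKM and then 3.09, 1.93 and 1.21, was not called (0.015, limma adjusted p = 0.977).

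Paralogs of the family, which can replace or accompany a ribosomal protein, had 4 rows, of which 1 rose and 0 fell. Rpl22l1, the paralog of Rpl22, was at 196, 160 and 175 FPKM with DMSO and 279, 226 and 355 with oligomycin (0.67, SE 0.18, limma adjusted p = 0.0230), with no overlap. Rpl22 itself rose by 0.58 (220, 217 and 196 to 328, 311 and 311 FPKM). Rps27l changed by -0.45, Rpl7l1 by -0.16 and Rpl36al by 0.036, none called. Rpl22l1 was no longer called when DMSO replicate 2 (0.60, adjusted p = 0.0761) or 3 (0.67, adjusted p = 0.0748) was left out, or oligomycin replicate 3 (0.51, adjusted p = 0.0689), nor was Rpl22 without DMSO replicate 3 (0.53, adjusted p = 0.0507).

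Other mRNAs with TOP tracts rose in part: 8 of 19 were called higher and 0 lower, with a median log2 change of 0.33. They were Gnb2l1, which encodes the small subunit's scaffold protein RACK1, the elongation factor genes Eef1a1, Eef1b2, Eef1g and Eef2, and Tpt1, Eif4a2 and Eif3f. Gnb2l1 was at 2550, 2838 and 2275 FPKM with DMSO and 4853, 4990 and 4723 with oligomycin, with groups far apart (0.93, SE 0.20, limma adjusted p = 0.00934). Npm1, Btf3, Naca, Eif4b and Eif3l, in the same list, had changes between -0.12 and 0.088 and were not called.

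The machinery that makes ribosomes did not move as the ribosomal proteins did in count. Of 64 ribosome biogenesis genes 6 rose and 2 fell, with a median log2 change of 0.032, and the largest rise was in Mdn1, the ATPase that strips assembly factors from the large subunit (10.2, 7.93 and 9.66 FPKM to 24.4, 25.7 and 21.5, 1.28, limma adjusted p = 0.00032), and the largest called fall in Lyar (-0.57, limma adjusted p = 0.0191). Of 20 RNA polymerase I genes 2 rose and 1 fell (median 0.058), with Taf1a at 0.84 and Polr2k, a subunit that all 3 nuclear RNA polymerases share, at -0.84. Of 13 chaperones of single ribosomal proteins 1 rose, Pdcd2, which accompanies Rps2, at 0.69, and 0 fell (median 0.11). Of 17 regulators of TOP mRNAs 1 rose and 2 fell (median -0.0012), with Rptor, a part of mTORC1, at 0.47 and Eif4e, the cap-binding protein, at -0.59. Leaving out 1 library ended some of these calls: that of Lyar without DMSO replicate 3 (-0.50, adjusted p = 0.0800) or oligomycin replicate 3 (-0.48, adjusted p = 0.0676), and that of Eif4e without any library but oligomycin replicate 1 (-0.38 to -0.63, adjusted p = 0.0575 to 0.108). Rptor was not called when either of DMSO replicates 1 and 3 or of oligomycin replicates 1 and 2 was left out (0.41 to 0.45, adjusted p = 0.0502 to 0.0857).

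Mitochondrial ribosomal proteins, which serve the separate ribosome inside mitochondria, had 73 rows, of which 3 rose and 8 fell, with a median log2 change of -0.20. Of these 73 genes 61 had a change below 0, while of the 72 cytosolic genes 11 did. These lists are described by their counts beside 14.0% of all rows called higher and 16.1% lower, and no test compared one list with another.

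The log2 levels of the 72 genes, averaged within a library, were 6.38, 6.35 and 6.27 with DMSO and 6.96, 6.78 and 6.86 with oligomycin. The rows outside the family whose log2 values followed this mean most closely, by Pearson correlation over 6 libraries in which the group step dominates, were Gm1943 (0.998), Ghitm (0.995), Zfp277 (0.995), Cth (0.995) and Eef1b2 (0.995). Eef1b2, a subunit of elongation factor 1, was at 660, 644 and 572 FPKM with DMSO and 1147, 1038 and 1054 with oligomycin. Cth, an enzyme of cysteine synthesis, had a much larger change, from 5.62, 5.08 and 4.40 FPKM to 39.6, 27.5 and 29.4 (2.45, limma adjusted p = 4.46e-05).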

How the data were processed

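The deposited table gives 1 FPKM per row and library, per its column names and the submitters' processing notes. These notes list Cuffnorm 2.2.1.1, Cuffdiff 2.2.1.3 and Cufflinks 2.2.1.0 beside the aligner TopHat2 2.1.0, and the mouse build mm10 (GRCm38). Not given in the sources used here are the role of each tool, the gene annotation, the strand of the libraries, any poly(A) selection and how reads with several matches were treated. The authors' FPKM are scaled to length and library, so no count model was used, and sequencing depth is unknown. Their sums without 185 small RNA rows ran from 367867 to 422836.

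Groups were compared in limma 3.58.1 (R 4.3.3) on the scale log2(FPKM + 1), with an intensity trend and the group alone in the model. The p-values are two-sided and adjusted by Benjamini-Hochberg over the 9986 rows that reached 1 FPKM in 3 or more libraries. Rows with an adjusted p under 0.05 were called. The pseudocount of 1 understates the change of low genes. The procedure was tested on simulated data. The sample titles carry the numbers 17, 42 and 43 in both groups, so the cultures may be matched by title. Columns carry numbers 1 to 3, and nothing maps these to the titles. Columns were therefore mapped to groups only, and a pairing by title could not enter the model. Replicate numbers are those of the columns. SD and n refer to libraries, SE to the fitted log2 change, and folds to group means.

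Starts of loci are printed counted from 1. Coding sequences came from GENCODE M21 (the longest complete one of a gene), and genes that overlap a gene were not counted as its copies. Alternatives covered the pseudocount, the filter, the scaling, rows that share a locus, the trend, a replicate block and each library left out. The members, lists and the rule for named genes were chosen with earlier results of these data known. That rule took the largest and smallest changes and the highest and lowest levels in each subunit, all genes of the role groups, the largest called change each way in each related list, and the closest rows by correlation. Some genes of these lists are counted but not reported by name here, and are left out of plots that name genes. Other names were chosen after their values were seen.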

Additional observations from a re-analysis of the deposited data

How the results depend on the processing

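The direction of the family did not depend on the setting: under all 17 alternatives the median log2 change of both subunits stayed above 0. Of the 44 genes called, 26 (11 large, 15 small) were also called without each library in turn, and the same 26 under every alternative that tested them. Scaling to equal sums without small RNA rows called 1917 rows higher and 1279 lower (60.0% higher, against 46.6%), and the upper quartile 1858 and 1362 (57.7%). Equal sums moved the median of all rows to 0.099. The median change of the large subunit was 0.64 with equal sums, 0.62 with the upper quartile and 0.61 after quantile normalization. That of the small subunit was 0.84 and 0.82 with the same scalings, 0.65 with a pseudocount of 5 and 0.81 without rows that share a locus, where 13 of 19 small subunit genes tested were called, fewer genes being tested.

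Leaving out 1 library gave 1769 to 3248 rows called (1769 without DMSO replicate 3, 1887 without DMSO replicate 1), 12 to 21 large and 15 to 21 small subunit genes called in either direction, and medians of 0.52 to 0.58 and 0.70 to 0.82. Changes of sign were seen in 7 genes that were not called: Rpl27 (-0.31 to 0.25 over all alternatives), Rpl10 (-0.18 to 0.013), Rpl39 (0.035) after quantile normalization, Rps23 (0.00027) with equal sums, and, with 1 library left out, Rpl31 (-0.057 without oligomycin replicate 3 to 0.27 without oligomycin replicate 2), Rpl39 (-0.62 without oligomycin replicate 1 to 0.67 without oligomycin replicate 3), Rpl9 (-0.32 without DMSO replicate 2 to 0.83 without DMSO replicate 1), Rps2 (-0.024 without oligomycin replicate 1 to 0.21 without oligomycin replicate 2) and Rps23 (-0.21 without oligomycin replicate 2 to 0.10 without oligomycin replicate 3). The cause was not tested. Quantile normalization ended the calls of Rpl10a, Rpl11, Rpl4 and Rplp1.

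The column numbers were not taken to pair the libraries, since no sample title carries them. Deviations of same-numbered libraries had correlations of 0.0556, 0.247 and 0.132. Those of differently numbered libraries ran from -0.216 to 0.117. Among the latter only oligomycin replicate 1 with DMSO replicate 3 (0.117) was positive. Each library was measured from the mean of its group, so positive values for some pairs require negative values for others. Whether the column numbers pair the libraries was not tested. With the replicate number as a block, 1668 rows were called higher and 1864 lower, in the large subunit 23 genes higher and Rpl24 lower (-0.61, adjusted p = 0.0342), and in the small subunit 21 higher and Rps27a (-0.71, adjusted p = 0.0454) and Rps29 (-0.58, adjusted p = 0.00960) lower. The block also gained Rps28 (0.62, adjusted p = 0.0466, from 0.0466 to 0.515 over all alternatives) and Rpl35 (1.18, adjusted p = 0.0323) as higher and lost Rpl4 (0.55, adjusted p = 0.0501) and Rpl10a. Sequencing depth is unknown, which limits what can be said of the lowest genes.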
